A study of Mus musculus with 10 samples.

Results

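The major urinary protein (Mup) genes were followed in bulk RNA-seq of the right liver lobe of 10 female mice. The 10 genes described (Mup1, Mup2, Mup3, Mup7, Mup10, Mup11, Mup15, Mup17, Mup20 and Mup21) were taken by symbol from the 55291 rows of the count table. All 10 passed the filter on low counts that left 17015 genes for testing. In all, 49 rows carried a Mup symbol, of which 27 were pseudogenes (Mup-ps).

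Every mouse was 16 to 20 weeks old and carried a Lox-Stop-Lox Cas9 allele. Every mouse, controls included, received an AAV8 vector by the tail vein that encoded a guide RNA from the U6 promoter and Cre from the TBG promoter, which is active in hepatocytes. The guide was either non-targeting (NTC) or directed against Bap1 (sgBap1), which encodes a deubiquitinase of the nucleus. At 10 days the mice were injected with carbon tetrachloride (CCl4) in olive oil, a toxin that is activated in and injures hepatocytes, or with olive oil alone (vehicle, Veh), and livers were taken 48 h later. The groups were NTC-Veh (n = 2), sgBap1-Veh (n = 2), NTC-CCl4 (n = 3) and sgBap1-CCl4 (n = 3). The vector reaches hepatocytes, while the RNA came from whole tissue with all of its cell types.

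MUPs are lipocalins, small secreted proteins with a barrel-shaped pocket that binds hydrophobic molecules. Hepatocytes make them in large amounts, and they pass through the blood into the urine, where they carry and slowly release volatile pheromones. Their transcription is driven by growth hormone, acting through Jak2 and Stat5b, together with glucocorticoid and thyroid hormone, and is higher in males than in females. Mup20 encodes darcin, a MUP of male urine that is itself attractive to females. The genes arose by repeated duplication and many copies are nearly identical.

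The members lie in a cluster on chromosome 4, between 60066469 and 62150863 (GRCm38), all on the minus strand. By coding sequence they fell into 3 kinds. Mup1, Mup2, Mup7, Mup10, Mup11, Mup15 and Mup17 were 98.3 to 99.6% identical to one another, with 2 to 9 differing bases in each pair. Mup20 was 89.9 to 91.4% identical to those 7, and Mup3 and Mup21, which were 95.4% identical to each other, were 83.2 to 84.8% identical to them. A window of 60 coding bases that runs from exon 2 into exon 3 is shown, because it holds 25 of the 117 aligned positions at which the members differ. Sequences run 5′ to 3′ on the minus strand and are from GRCm38 with GENCODE gene models, and capitals mark bases that differ from the commonest base at that position. The coordinates take in the intron that parts the exons. First are Mup3 (chr4:62085992-62086818), which held most of the counts, Mup21 (chr4:62149387-62150213) and Mup20 (chr4:62052669-62053498), the members that shared the smallest part of their transcript sequence with other genes.
Mup3: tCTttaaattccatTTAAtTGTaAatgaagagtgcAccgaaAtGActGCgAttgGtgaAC
Mup21: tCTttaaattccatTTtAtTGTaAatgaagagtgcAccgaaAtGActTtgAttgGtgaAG
Mup20: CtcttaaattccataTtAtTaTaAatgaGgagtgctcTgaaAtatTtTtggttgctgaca
Next are the near-identical copies, Mup1 (chr4:60500472-60501300), Mup10 (chr4:60580712-60581539) and Mup17 (chr4:61594384-61595211), in which Mup1 and Mup17 each have 1 base that Mup10 does not.
Mup1: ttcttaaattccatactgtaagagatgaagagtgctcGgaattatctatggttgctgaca
Mup10: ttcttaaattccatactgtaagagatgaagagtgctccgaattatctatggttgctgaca
Mup17: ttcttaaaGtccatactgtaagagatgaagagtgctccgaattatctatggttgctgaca
Mup3 differed from the commonest base at 20 of the 60 positions, Mup21 at 18 and Mup20 at 11. Mup10 differed at 0, and Mup1 and Mup17 at 1. In this window Mup2, Mup11 and Mup15 have the sequence of Mup1, and Mup7 has that of Mup17.

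This likeness bears on how reads were assigned. Of all 50-base stretches of its transcripts, Mup3 shared 13.3% and Mup21 19.3% with another gene, mostly with each other. Mup20 shared 50.5%, nearly all with the pseudogene Mup-ps19 and 4.44% with other members. The 7 near-identical copies shared 61.6% (Mup1) to 100% (Mup15). Salmon divides such reads between copies by estimate. Among livers above 0, the estimates of Mup20 were exactly whole numbers in 9 of 10. Those of the other 9 members were whole in none. The values of single copies among the 7 are thus uncertain, and their sum is given beside them. These copies also share stretches with Mup22, Mup9, Mup14, Mup16, Mup18 and Mup19, which are not members. Sums over members, and the values of Mup22, thus depend on how Salmon divided reads too.

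**Figure D1:**
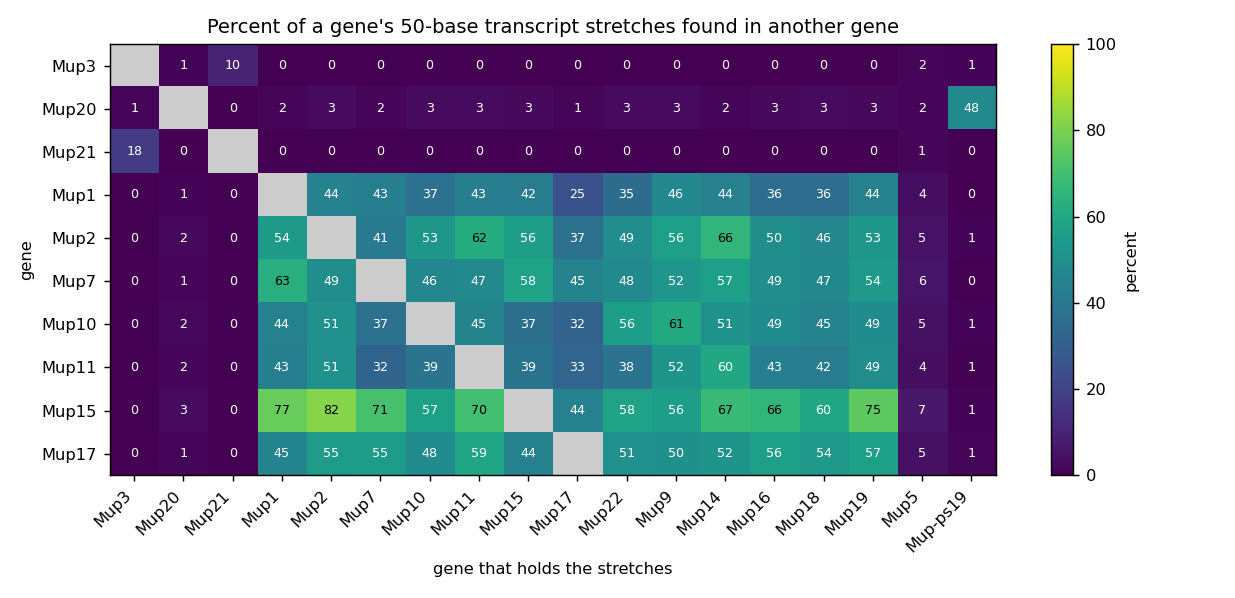
Percent of the 50-base stretches of the transcripts of each of the 10 genes (rows) that are also present in transcripts of another gene (columns, with the 7 other Mup genes of at least 100 mean counts and Mup-ps19). Mup3 and Mup21 share few stretches with any other gene, Mup20 shares 48 percent with Mup-ps19, and the 7 near-identical copies share stretches with one another and with Mup22, Mup9, Mup14, Mup16, Mup18 and Mup19.

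Libraries held 33047900 to 52199900 estimated counts, and levels are given as CPM, the counts scaled to the normalized size of the library. The floor of detection, 3 counts, was 0.0511 to 0.112 CPM. This floor and the intervals given cover counting and replicate error as named, not the uncertainty of read assignment. The targeted gene was checked first. Bap1 was at 34.8 and 34.8 CPM in the NTC-Veh livers and 17.5 and 19.5 CPM in the sgBap1-Veh livers, and fell with the guide in vehicle (log2 fold change −0.91, adjusted p = 0.0208) and CCl4 livers (−0.65, adjusted p = 0.0295). The call was kept in 6 of 10 fits without 1 liver with vehicle and in 4 of 10 with CCl4, at log2 fold changes of −0.99 to −0.84 and −0.75 to −0.57. It was lost without any 1 of the vehicle livers in the first case, and without NTC-Veh 1 or 2, any 1 NTC-CCl4 liver or sgBap1-CCl4 1 in the second. Albumin (Alb), the defining product of hepatocytes, was at 55036 to 116166 CPM in every liver. The liver sgBap1-CCl4 2 stood apart with 36.4 CPM of Adipoq and 34.5 CPM of Plin1, both genes of fat cells, which were at or below 0.0425 CPM in the other 9 livers.

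The 10 genes together took a smaller share of the library in every CCl4 liver than in any vehicle liver. Summed over the members, the family total was 1959 and 1005 CPM in the NTC-Veh livers, 1753 and 3157 CPM in the sgBap1-Veh livers, 368, 419 and 117 CPM in the NTC-CCl4 livers and 459, 313 and 775 CPM in the sgBap1-CCl4 livers. Each of the 4 vehicle livers was above each of the 6 CCl4 livers, and within a treatment the NTC and sgBap1 livers overlapped. The group means were 1482 ± 674 (SD, n = 2), 2455 ± 992 (n = 2), 301 ± 162 (n = 3) and 516 ± 236 CPM (n = 3) in the same order, or 4.92-fold lower with CCl4 in NTC and 4.76-fold lower in sgBap1 livers. No test was made on this sum. Over all 49 Mup rows the means differed more, 8.81-fold in NTC and 7.27-fold in sgBap1 livers, and the largest of the added rows was Mup22. In these whole livers, fewer hepatocytes and less Mup RNA per hepatocyte cannot be told apart.

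Mup3 carried most of this total. Compared per kilobase of exon in NTC-Veh livers, Mup3 was at 788 and 1673 CPM per kb, above Mup20 at 43.95 and 67.8 CPM per kb, which in turn was above Mup10 at 21.8 and 23.0 CPM per kb. From Mup10 down to Mup7, through Mup11, Mup1, Mup21, Mup17 and Mup2, each neighbour overlapped the next. Mup15 was lowest, at 4.55 and 6.13 CPM per kb. In sgBap1-Veh livers Mup3 was again first without overlap, and all other neighbours in the order overlapped. In NTC-CCl4 livers the order began with Mup3, Mup20 and Mup1, with no overlap between these, and ended with Mup15 at 0 in all 3 livers.

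Against vehicle, CCl4 lowered 8 of the 10 members in NTC livers, where 26.6% of all tested genes were called lower and 27.4% higher. The median log2 fold change of the members was −4.24, beside 0.03 over all tested genes. The 2 that were not called were Mup20 and Mup1. Mup15 and Mup17, both among the 8, passed the filter only through vehicle livers. The counts and the median given here thus include 2 genes chosen in part for being high with vehicle. The livers of the 2 groups did not overlap for 9 members, all but Mup1, where this held with lower values in 35% of all tested genes.

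**Figure D2:**
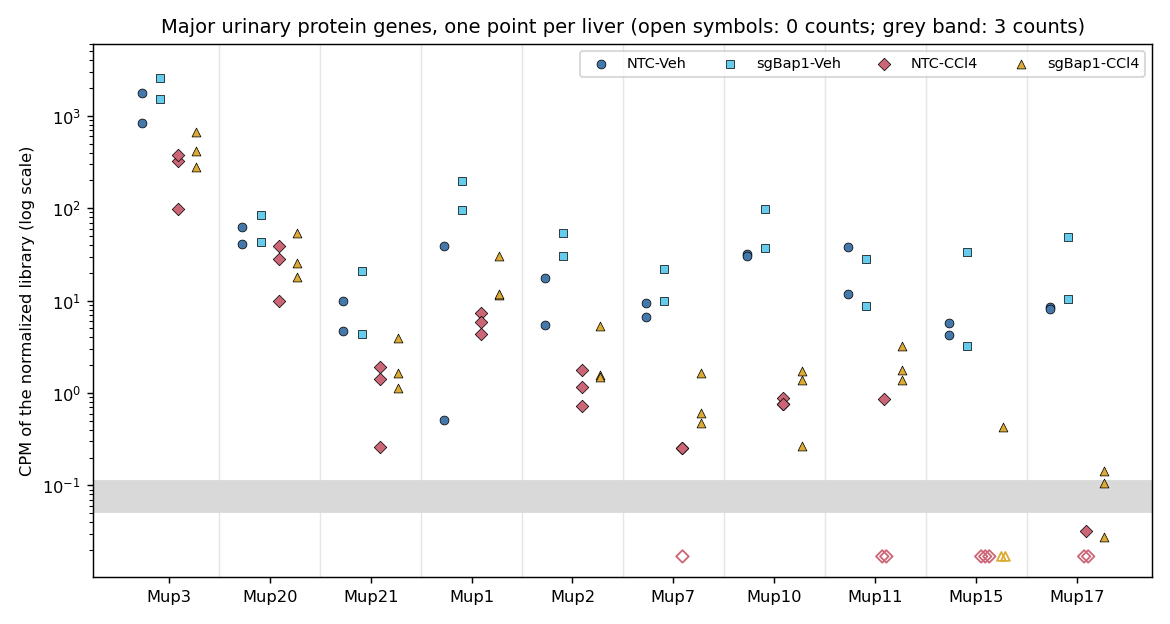
Level of each of the 10 genes in every liver, in CPM of the normalized library on a log axis, with 1 symbol per liver and a colour and shape per group. Open symbols are livers with 0 counts, drawn below the grey band that marks 3 counts. Mup3 lies highest in all groups, Mup20 shows the smallest gap between vehicle and CCl4 livers, and Mup1 in 1 NTC-Veh liver lies below all CCl4 livers.

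Mup3, the most abundant member, was at 1786 and 842 CPM in NTC-Veh and at 322, 378 and 99.3 CPM in NTC-CCl4 livers. Both vehicle livers were above all 3 CCl4 livers, and Mup3 fell by 2.30 on the log2 scale (SE 0.61, edgeR adjusted p = 0.0126). In sgBap1 livers Mup3 was at 1510 and 2567 CPM with vehicle and 416, 278 and 674 CPM with CCl4, again without overlap (−2.16, adjusted p = 0.0158). The call was lost without sgBap1-CCl4 2 (−1.90, adjusted p = 0.0706) or without sgBap1-Veh 2 (−1.73) in sgBap1 livers, and without NTC-Veh 1 in NTC livers (−1.66, adjusted p = 0.0994). Over alternatives that kept every liver its adjusted p was 0.000957 to 0.0588 in NTC and 0.00207 to 0.0812 in sgBap1 livers.

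Mup21, the near relative of Mup3, was at far lower levels. Its values were 9.95 and 4.66 CPM in NTC-Veh livers, 1.42, 1.92 and 0.261 CPM in NTC-CCl4, 4.30 and 20.8 CPM in sgBap1-Veh, and 1.66, 1.14 and 3.97 CPM in sgBap1-CCl4. It fell by 2.56 (adjusted p = 0.0413) and by 2.48 (adjusted p = 0.0345) on the log2 scale, with no overlap in either guide. The 2 calls were near the threshold. Both were lost under 3 of 9 alternatives that kept every liver: with no filter on low counts, with a replicate block, and with libraries scaled by size alone, which moved the median of all genes to 0.50 and 0.52. Without sgBap1-Veh 2 the value in sgBap1 livers was −0.96. Of the 10 fits without 1 liver, 3 kept the call in NTC and 6 in sgBap1 livers. The livers whose loss ended it were NTC-Veh 1 and 2, all 3 NTC-CCl4 livers and sgBap1-CCl4 1 and 2 in the first case, and sgBap1-Veh 2, NTC-CCl4 1 and sgBap1-CCl4 1 and 2 in the second.

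Mup20, the gene of darcin, had the log2 fold change nearest to 0 of all members in both guides. It was at 62.9 and 40.8 CPM in NTC-Veh and 38.8, 27.9 and 9.81 CPM in NTC-CCl4 livers, which did not overlap. In sgBap1 livers it was at 43.4 and 83.9 CPM with vehicle and 25.3, 18.2 and 54.6 CPM with CCl4, so that the highest CCl4 liver was above the lower vehicle liver. The log2 fold changes of −1.02 (95% interval −2.53 to 0.49, adjusted p = 0.220) and −0.96 (−2.47 to 0.54, adjusted p = 0.239) were not called. These intervals include both no change and a fall as large as that of Mup3.

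Of the near-identical copies, 6 of 7 fell with CCl4 in each guide. Mup10, whose bases in the window above are the commonest at every position, was at 32.0 and 30.3 CPM in NTC-Veh and at 0.756, 0.877 and 0.769 CPM in NTC-CCl4 livers (log2 fold change −5.27, SE 0.64, adjusted p = 0.000257). In sgBap1 livers it went from 37.0 and 98.4 CPM to 1.37, 0.268 and 1.74 CPM (−5.92, adjusted p = 0.000113). No liver overlapped, and the call held in every fit without a liver.
Mup7 was at 9.38 and 6.67 CPM in NTC-Veh and at 0.257, 0.257 and 0 CPM in NTC-CCl4 livers, 1 of which was thus under the floor (−5.41, SE 0.72, adjusted p = 0.000304). With sgBap1 it was at 9.82 and 22.0 CPM after vehicle and 0.601, 0.470 and 1.65 CPM after CCl4 (−4.17, adjusted p = 0.000332). All vehicle livers were above all CCl4 livers.
Mup2 was at 5.49 and 17.5 CPM in NTC-Veh and at 0.718, 1.78 and 1.17 CPM in NTC-CCl4 livers (−3.21, SE 0.74, adjusted p = 0.00738). In sgBap1 livers its values were 30.1 and 54.5 CPM with vehicle and 1.57, 1.49 and 5.33 CPM with CCl4 (−3.94, adjusted p = 0.00183). Again the groups did not overlap, and the call in NTC livers was lost without NTC-Veh 2 (−2.14, adjusted p = 0.0711).

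In 3 further copies at least 2 of 3 CCl4 livers of a group were at or under the floor. Mup11 was at 37.8 and 11.8 CPM in NTC-Veh livers and at 0, 0.867 and 0 CPM in NTC-CCl4 livers (adjusted p = 0.00219). Its fitted log2 value ran from −13.06, without NTC-CCl4 2, to −5.17, without NTC-Veh 1, and is no measure of the size of the fall. In sgBap1 livers it was at 8.68 and 28.1 CPM with vehicle and 1.78, 1.37 and 3.25 CPM with CCl4 (−3.12, adjusted p = 0.0197). Both falls were called, but 2 of the 3 NTC-CCl4 livers were at 0 and none of the sgBap1-CCl4 livers was. The call in sgBap1 livers was lost without sgBap1-Veh 2 (−2.04), without sgBap1-CCl4 1 or without sgBap1-CCl4 2, and with DESeq2 (adjusted p = 0.174).
Mup17 was at 8.56 and 8.18 CPM in NTC-Veh and 0.0318, 0 and 0 CPM in NTC-CCl4 livers, the last 3 at or under the floor (adjusted p = 8.27e-05). It was at 10.4 and 49.0 CPM in sgBap1-Veh and 0.0278, 0.106 and 0.143 CPM in sgBap1-CCl4 livers (adjusted p = 1.84e-05). No fold is given for it because CCl4 livers held so few counts.
Mup15, whose transcript has no stretch of its own, was at 5.67 and 4.21 CPM in NTC-Veh and at 0 in all 3 NTC-CCl4 livers. Against the floor of a CCl4 library this estimate is at least 63.2-fold lower (edgeR adjusted p = 0.0244). Because all of its stretches are shared, this sets no bound on its RNA. In sgBap1 livers Mup15 was at 3.26 and 34.0 CPM with vehicle and at 0, 0.433 and 0 CPM with CCl4 (adjusted p = 0.00942). The call in NTC livers was lost without NTC-Veh 1, NTC-Veh 2 or sgBap1-CCl4 2 (adjusted p = 0.0554 to 0.102), and that in sgBap1 livers without sgBap1-CCl4 2 (adjusted p = 0.0764).

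For Mup1 the vehicle livers themselves differed widely. It was at 0.513 and 39.3 CPM in NTC-Veh and 4.38, 7.28 and 5.92 CPM in NTC-CCl4 livers, so that the CCl4 livers lay between the vehicle livers. The log2 fold change was −1.76 (95% interval −4.51 to 0.99, adjusted p = 0.245). Without NTC-Veh 1 it was called lower at −2.74 (adjusted p = 0.0108), and without NTC-Veh 2 it was called higher at 3.50 (adjusted p = 0.0379), in a fit that assumes that the lone vehicle liver varies like the other groups. In sgBap1 livers Mup1 was at 96.6 and 199 CPM with vehicle and 11.4, 11.7 and 30.8 CPM with CCl4, which did not overlap (−3.04, adjusted p = 0.0551). Over alternatives that kept every liver this adjusted p ranged from 0.00642 to 0.129.

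NTC-Veh 1 stood apart in a few Mup genes, while its family total lay between those of the other vehicle livers. Relative to the mean of the other 3 vehicle livers on the log2 CPM scale, its Mup1 was at −7.35 and its Mup2 at −2.47, and the further Mup genes Mup5 and Mup9 were at −7.71 and −2.92. On the same scale Mup11 was at 1.41, Mup18 at 1.02 and Mup19 at 2.09, while Mup3 was at 0.27 and Mup20 at 0.25. Among the 12026 tested genes whose mean reached 100 counts, ranked by how far NTC-Veh 1 lay below the lowest of the other 9 livers, Mup1 was at rank 2 and Mup5 at rank 11. Mup5 shares only 17.1% of its stretches with other genes, and its estimates were exactly whole in 7 of 10 livers. It was at 0.0545 CPM in NTC-Veh 1 and at 11.3 to 35.9 CPM in the other vehicle livers. Mup5 and Mup1 were singled out here after their values were seen, and no test was made of this liver.

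**Figure D3:**
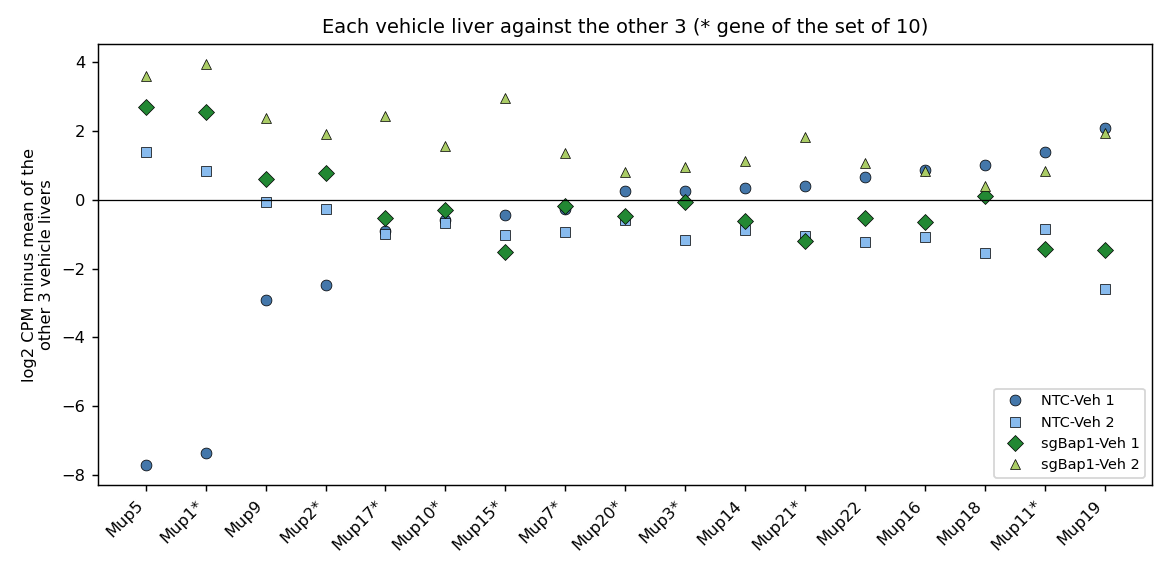
For each of the 4 vehicle livers, the log2 CPM of each Mup gene minus the mean of the other 3 vehicle livers, ordered by the value in NTC-Veh 1. NTC-Veh 1 lies at −7.71 and −7.35 for Mup5 and Mup1 and at 2.09 for Mup19, while sgBap1-Veh 2 lies above 0 for every gene shown.

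Across both guides the same 8 members were called lower with CCl4, and in sgBap1 livers 28% of all tested genes were called lower and 29% higher. The livers did not overlap there for 9 members, all but Mup20, where this held with lower values in 34.9% of all tested genes. The median of the members there was −3.53, beside 0.04 over all genes. The count fell to 4 (Mup2, Mup7, Mup10 and Mup17) without sgBap1-CCl4 2, the liver with the Adipoq and Plin1 RNA. The share of all genes called in that fit is not given here, so this fall is not read as a result about the members. The count of members also fell without sgBap1-Veh 2, and in NTC livers without NTC-Veh 1 or NTC-Veh 2, fits that each leave a lone vehicle liver of that guide. Of all 13 other Mup rows tested, 8 were called lower in NTC and 13 in sgBap1 livers, and 0 higher. Rows with few counts passed the filters through their vehicle livers, as did Mup15 and Mup17 among the members, so that these counts describe rows chosen in part for being high with vehicle. The 5 not called in NTC livers were Mup12 and 4 pseudogenes. Mup5 was called lower in NTC livers (−4.25, adjusted p = 0.0360) although the groups overlapped, with NTC-Veh 1 below all 3 NTC-CCl4 livers, which were at 0.213 to 0.357 CPM. Mup22, which in vehicle livers had the next most counts after Mup3, was at 1658 and 619 CPM in NTC-Veh and 14.9, 30.2 and 5.68 CPM in NTC-CCl4 livers (−6.07, adjusted p = 0.000434). All of its stretches are shared, 92.9% of them with Mup10. Gm13775, a transcript of the opposite strand within the cluster that shares 4 stretches with members, was at 3.48 to 35.0 CPM in vehicle livers and at 0 in all 6 CCl4 livers.

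**Figure D4:**
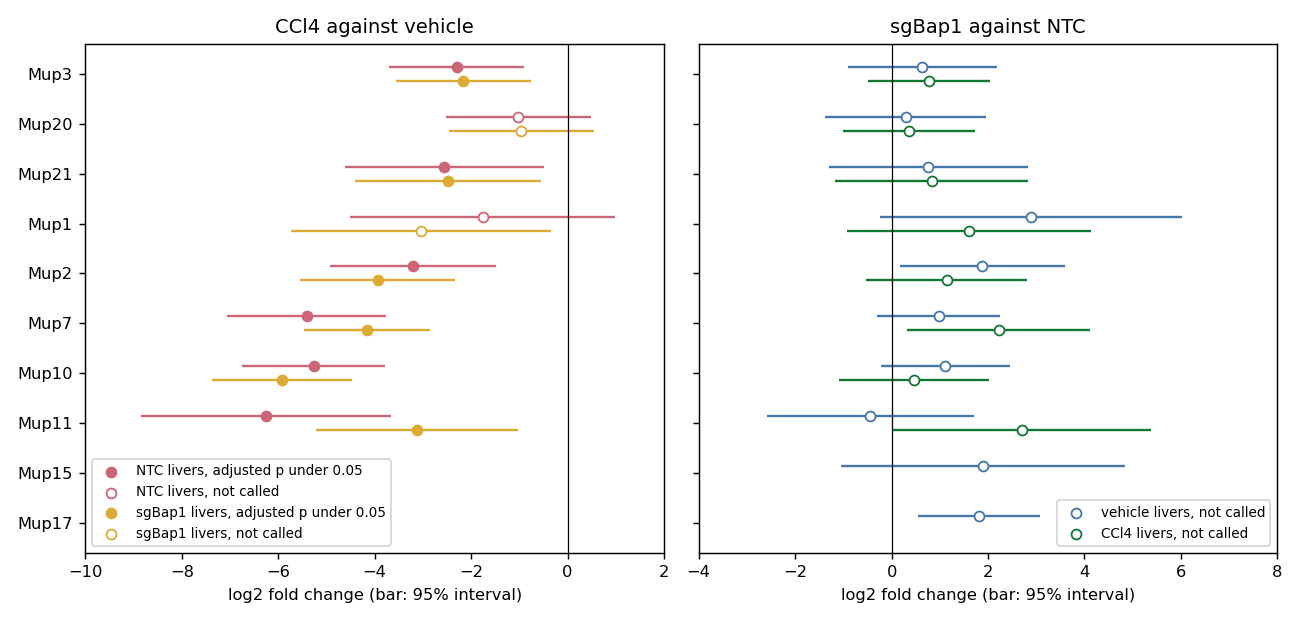
Log2 fold change of each gene with its 95% interval, for CCl4 against vehicle (left) and sgBap1 against NTC (right), with filled symbols for adjusted p under 0.05. Mup15 and Mup17 are drawn only for the vehicle livers, because in CCl4 livers they were at or near 0 counts, and Mup11 is a fit with 2 NTC-CCl4 livers at 0. With CCl4 all symbols lie left of 0 and only Mup20 and Mup1 are open, and on the right no symbol is filled.

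The makeup of the Mup RNA differed between treatments. Mup3 held 44.5 to 52.4% of all Mup counts in the 4 vehicle livers and 74.5 to 83.1% in the 6 CCl4 livers. Mup20 held 1.46 to 2.28% and 4.85 to 10.0%, and Mup22 held 30.8 to 42.4% and 3.84 to 13.7%. None of these 3 shares overlapped between treatments, though that of Mup22 depends on how Salmon divided shared reads. The sum of the 7 near-identical members overlapped, at 2.55 to 8.42% in vehicle and 1.59 to 6.23% in CCl4 livers, while in CPM it was 99.4 to 485 and 6.15 to 42.9.
The ratio of 2 genes within a liver does not depend on the scaling of the library. The log2 ratio of Mup20 to Mup3 was −5.12 to −4.37 in vehicle and −4.04 to −3.05 in CCl4 livers, which did not overlap. The difference within guides was 1.19 (exact permutation of treatment within each guide, two-sided p = 0.01, the smallest that its 100 arrangements allow, 0.015 adjusted over 3 ratios). The log2 ratio of Mup10 to Mup3 was −5.80 to −4.70 and −10.02 to −7.01, a difference of −3.40 (exact permutation p = 0.01, adjusted 0.015). That of Mup21 to Mup3 differed by −0.29 (exact permutation p = 0.4), and its ranges of −8.45 to −6.95 and −8.57 to −7.41 overlapped. These 3 ratios were chosen after the values were seen, so their p-values cannot be read as tests of them. The adjustment covers these 3 ratios and not all pairs of members. The ratio of Mup10 to Mup3 also depends on read assignment.

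**Figure D5:**
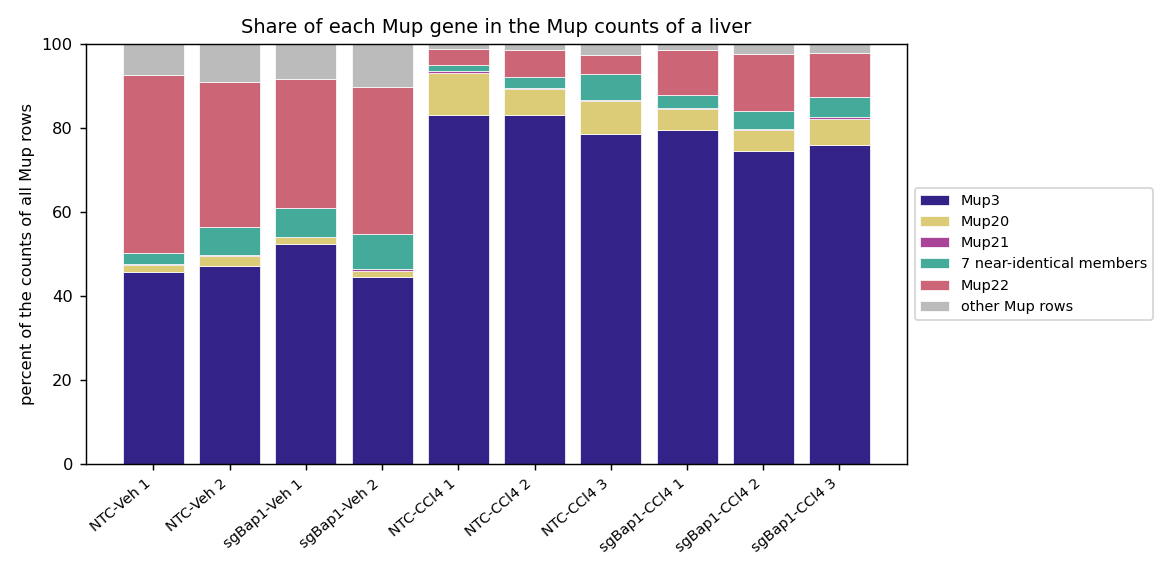
Share of each Mup gene in the counts of all Mup rows of a liver, as stacked percentages for the 10 livers by group and replicate. Mup3 takes 44.5 to 52.4 percent in vehicle and 74.5 to 83.1 percent in CCl4 livers, and the Mup22 band narrows from 30.8 or more to 13.7 percent or less.

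No member passed the threshold for the guide against Bap1. In vehicle livers 0 of 10 were called (edgeR quasi-likelihood), beside 0.276% of all tested genes called higher and 0.129% lower by the same test. However, 2 members (Mup17 and Mup2) had an unadjusted p under 0.05. DESeq2 called 1 (Mup17), and its share over all genes is not given here. The fitted values were above 0 for 9 members, Mup11 being the other at −0.44. Mup17 had a log2 fold change of 1.82 (95% interval 0.56 to 3.08, adjusted p = 0.214), at 10.4 and 49.0 against 8.56 and 8.18 CPM. Its adjusted p ranged from 0.04002 to 0.649 over alternatives that kept every liver, and it was called without sgBap1-Veh 1 (2.55, adjusted p = 0.0251). Without sgBap1-Veh 2 its log2 fold change was 0.32. For 5 members the sgBap1-Veh livers were all above the NTC-Veh livers (Mup1, Mup2, Mup7, Mup10 and Mup17), beside 21.7% of all tested genes with no overlap in that direction. Mup3 had a log2 fold change of 0.63 (95% interval −0.91 to 2.18, adjusted p = 0.793) and Mup20 one of 0.29 (−1.37 to 1.96). sgBap1-Veh 2 was the highest liver for all members but Mup11.

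In CCl4 livers 0 of 10 members were called with the guide by edgeR or by DESeq2, and 2 (Mup7 and Mup11) had an unadjusted p under 0.05. The background there by edgeR was 0.2% called higher and 0.129% lower. All 10 fitted values were above 0, from 0.35 for Mup20 to 2.22 for Mup7, leaving out Mup11, Mup15 and Mup17, of which at least 2 NTC-CCl4 livers were at 0. The value of Mup11 ran from 2.13 to 9.499 without 1 liver, the latter without NTC-CCl4 2. For 3 of them (Mup1, Mup7 and Mup11) the sgBap1-CCl4 livers were all above the NTC-CCl4 livers, beside 10.1% of all tested genes. Mup7 had the lowest adjusted p (log2 fold change 2.22, 95% interval 0.33 to 4.12, adjusted p = 0.284), and Mup3 was at 0.78 (−0.49 to 2.04, adjusted p = 0.568). NTC-CCl4 3 had the lowest family total of all livers, and without it the guide difference of the total on the log2 scale went from 0.88 to 0.29.
The interaction of guide and CCl4 tested whether the response to CCl4 differed between guides. It called 0 members by edgeR and by DESeq2. With edgeR 0 members had an unadjusted p under 0.05, and 0% of all tested genes were called. The paper, which used DESeq2, reported genes with a significant interaction. For Mup3 the edgeR value was 0.14 (95% interval −1.84 to 2.13, adjusted p = 0.979) and for Mup20 0.06 (−2.10 to 2.21). These intervals include differences of over 1.8 on the log2 scale in either direction.

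The genes that control Mup transcription were taken from a fixed list of 16 genes, the kinase Jak2 among receptors and transcription factors. In NTC livers CCl4 lowered 11 and raised 1 of them, with a median of −0.62. Ghr, the growth hormone receptor, fell from 511 and 526 CPM to between 121 and 161 CPM (−1.91, adjusted p = 1.95e-05). Stat5b, the factor that growth hormone activates in hepatocytes, fell by 0.68 on the log2 scale (adjusted p = 0.000154). Cebpa (−1.56) and Rxra (−0.82), factors of hepatocyte gene expression, and Nr3c1 (−0.48), the glucocorticoid receptor, fell as well. The gene that rose was Jak2, which is bound to the growth hormone receptor (0.74, adjusted p = 0.00231). In sgBap1 livers 9 fell and 1 rose. The guide raised 1 of the 16, Bcl6, a repressor that binds many Stat5 sites. Bcl6 was at 5.17 and 6.82 CPM in NTC-Veh and 18.5 and 25.3 CPM in sgBap1-Veh livers (1.87, adjusted p = 0.0191), and it also rose with the guide in CCl4 livers (1.45, adjusted p = 0.0188), in which no member was called.

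A second list held 6 targets and feedback genes of growth hormone. CCl4 lowered 5 of them in NTC livers, Igfals (−1.75), Prlr (−1.61), Cish (−1.58), Socs2 (−2.49) and Igf1 (−0.98), and raised Socs3 (1.71), an inhibitor induced by cytokines. In sgBap1 livers 4 fell and 1 rose. Most genes of either sex bias fell in NTC livers. Of 10 tested male-biased genes 7 fell and 1 rose (median −2.23), among them Cyp7b1 (−2.35), a bile acid hydroxylase, Susd4 (−3.49) and Hsd3b5 (−3.49), while Gstp1 rose (2.09). In sgBap1 livers 5 fell and 2 rose. Of 16 female-biased genes 14 fell and 1 rose (median −3.20), among them Cyp3a16 (−6.51), Fmo2 (−2.79), Acot3 (−4.47) and Cyp2b9 (−1.77), and in sgBap1 livers all 16 fell. Hsd3b5 (0.0260 to 0.0853 CPM), Susd4 (0.0939 to 0.149 CPM) and Cyp3a16 (0.0262 to 0.116 CPM) were near the floor in NTC-CCl4 livers, so the sizes of their falls are uncertain. Every list shown here is described by its counts, and no list was tested against other genes.

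Other lipocalins of the liver and other secreted proteins give the setting. Of 9 tested lipocalins 4 fell in NTC livers, C8g (−1.68), Rbp4 (−1.34), the retinol carrier, Orm3 (−2.24) and Apom (−0.32), and Lcn2, an acute-phase lipocalin, rose (3.37, adjusted p = 2.45e-06). In sgBap1 livers 5 of the 9 fell and 1 rose. Of 24 abundant secreted proteins 16 fell and 1 rose, with a median of −0.90 and with Alb at −0.76 (adjusted p = 0.0168). In sgBap1 livers 13 fell and 2 rose, and Alb was at −0.42 (adjusted p = 0.142). Of 14 hepatocyte markers 12 fell and 0 rose (median −1.35), and their summed level was 143581 to 174179 CPM in NTC-Veh and 78680 to 88908 CPM in NTC-CCl4 livers. In sgBap1 livers 9 of them fell and 0 rose, and the sum was 129694 to 133642 CPM with vehicle and 71276 to 91606 CPM with CCl4.
Of the markers of other cell types, none fell in NTC livers. Kupffer cell (resident macrophage) and macrophage markers, of which 5 of 8 rose with CCl4 in NTC livers, summed to 197 to 313 CPM in NTC-Veh and 625 to 1079 CPM in NTC-CCl4 livers. Much of this was Marco (6.10 to 23.7 and 154 to 381 CPM) and Cd5l (62.0 to 109 and 186 to 319 CPM), and the Kupffer cell genes Clec4f, Timd4 and Vsig4 were not called. Neutrophil markers (4 of 4 tested rose) summed to 5.38 to 10.3 and 25.9 to 34.4 CPM, and stellate cell markers (5 of 7 rose) to 226 to 271 and 436 to 544 CPM. The lymphocyte list (5 of 10 rose) summed to 14.8 to 25.0 and 58.5 to 74.9 CPM, mostly through Ptprc, a gene of all leukocytes (9.98 to 14.9 and 46.8 to 57.7 CPM), and the T cell genes Cd3e and Cd3g were not called. Endothelial markers (4 of 7 rose) summed to 202 to 215 and 269 to 287 CPM. The cholangiocyte list (2 of 5 rose) summed to 43.2 to 51.4 and 192 to 248 CPM, nearly all of it Spp1, which other cells express too (38.7 to 43.6 and 180 to 234 CPM). Sox9 was the other that rose, at 2.07 to 2.19 and 8.93 to 10.9 CPM (log2 fold change 2.20, edgeR adjusted p = 3.89e-06), and Krt7, Krt19 and Epcam were not called. In sgBap1 livers 3 of 8 macrophage markers rose and 2 fell (Clec4f at −1.29 and Timd4 at −1.13), and the sums were 409 to 615 and 619 to 843 CPM. With vehicle, the sum of the macrophage markers was higher in both sgBap1 than in both NTC livers, and 1 of 8 (Csf1r) was called with the guide, as was Ptprc. The 8 fat cell markers summed to 5.12 to 24.2 CPM in NTC livers of either treatment and to 343 CPM in the highest sgBap1-CCl4 liver, with Lep, Retn and Cfd at 0 in every NTC-CCl4 liver. The part of these cells in the Mup differences was not tested.

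The promoters were read for motifs in the 250 bases before the annotated RefSeq start (GRCm38.p6), which matched 8 members by symbol. TTCNNNGAA, the letters of a Stat5 site, was in 0 of these 8, on either strand, and in 7.02% of 32851 promoters of that length. TATATAA was in 6 of 8 (Mup2, Mup3, Mup10, Mup15, Mup17 and Mup21) and in 3.04% of all. The promoters of Mup3 (chr4:62087318-62087567, minus strand), the member with most counts, and Mup10 (chr4:60582156-60582405, minus strand), which fell by 5.27 on the log2 scale, are shown with TATATAA matches of either strand in capitals, 2 of which overlap in Mup10.
Mup3: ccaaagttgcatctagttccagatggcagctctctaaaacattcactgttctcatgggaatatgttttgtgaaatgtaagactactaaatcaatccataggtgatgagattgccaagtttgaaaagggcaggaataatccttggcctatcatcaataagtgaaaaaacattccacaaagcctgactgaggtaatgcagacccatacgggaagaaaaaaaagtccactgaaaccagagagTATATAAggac
Mup10: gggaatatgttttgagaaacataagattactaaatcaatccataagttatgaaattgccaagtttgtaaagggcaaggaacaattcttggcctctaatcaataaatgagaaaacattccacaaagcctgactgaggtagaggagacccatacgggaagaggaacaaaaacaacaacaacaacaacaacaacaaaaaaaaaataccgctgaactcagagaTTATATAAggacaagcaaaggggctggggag
In Mup3 the match began 11 bases before the annotated start and in Mup10 the 2 matches began 31 and 30 bases before it. These are matches of letters only.

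Genes most like the family total were sought by the correlation of deviations from the group means, on the log2 scale over the 10 livers, among 12008 genes outside the Mup rows. The 5 highest were Fibp (r = 0.985), Dnajc30 (0.984), Rdh14 (0.976), Eef1akmt1 (0.973) and Tmem223 (0.971). Points share library and depth, and 10 livers in 4 groups leave few free values. Of the members, Mup3 (0.998), Mup21 (0.964), Mup7 (0.962) and Mup20 (0.956) followed the total from liver to liver, while Mup2 (0.208), Mup15 (−0.066) and Mup1 (−0.177) did not. The members are parts of the total themselves. The 5 genes outside the family did not all respond to CCl4 alike. In NTC livers Dnajc30 (−0.89), Rdh14 (−0.90) and Tmem223 (−1.15) fell, Eef1akmt1 rose (0.39, adjusted p = 0.0213), and Fibp, at 21.8 to 23.5 CPM with vehicle and 23.7 to 27.8 CPM with CCl4, was not called (0.21, adjusted p = 0.0801).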

How the data were processed

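RNA from 10 livers was sequenced from stranded poly(A) libraries. The authors processed the reads with STAR 2.7.6a and Salmon 1.4.0 against GRCm38, and deposited expected counts (Salmon's estimated counts) per gene symbol, without normalization. 9.22% of the values were not whole, and all were rounded before testing. Counts were analysed in R 4.3.3 with edgeR 4.0.16: filterByExpr, TMM scaling and 1 quasi-likelihood model of the 4 groups, with two-sided tests of 17015 genes and Benjamini-Hochberg adjustment (threshold 0.05). DESeq2 1.42.0 and other settings were alternatives. The model was tested on simulated counts. CPM were scaled to the TMM-normalized library size, and CPM per kb divide them by the exon length. Log2 CPM used a prior count of 2. Numbers in the labels gave no sign of pairing livers. Nothing in the labels says more than that each library is a separate liver, so that p-values measure the spread between these samples.

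Stretches of 50 bases were compared between GENCODE vM21 transcripts, an earlier release than that used by the authors for counting, and coding sequences were aligned with MAFFT 7.526. Genes were named by a rule: the 10 members, Bap1, other Mup rows with a mean of at least 100 counts, up to 6 called genes of each list in order of adjusted p, Adipoq, Plin1, and the 5 genes most like the total. Mup5 and a few list genes were named after their values were seen. The members and lists were chosen with earlier results of these data known. The authors' other experiments were not analysed here. The values of 1 listed gene are not reported here.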

Additional observations from a re-analysis of the deposited data

How the results depend on the processing

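Groups held 2 or 3 livers, and how many reads were unique to each of the 7 near-identical copies was not measured. Of 376 values of single genes under alternatives that kept every liver, 355 kept direction and call, 18 lost and 3 gained the call, and 0 changed sign. Of 419 values without 1 liver, 375 kept both, 32 lost and 4 gained the call and 8 changed sign.

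Members called lower with CCl4 in sgBap1 livers went from 8 to 5 with no filter on low counts. Without 1 liver the counts were 5 to 8 lower and 0 to 1 higher in NTC livers, 4 to 9 lower in sgBap1 livers, and 0 to 1 higher for the guide with vehicle. DESeq2 called 1 member higher with the guide in vehicle livers. The shares of all genes called in these other fits are not given here, so these counts are not read as results about the members. The CCl4 difference of the family total in NTC livers was −3.23 with all Mup rows summed, against −2.42. Library size alone moved the median of all genes with CCl4 to 0.50 in NTC and 0.52 in sgBap1 livers. Where the sign changed without 1 liver, the log2 fold changes ranged as follows. With CCl4 in NTC livers Mup1 was −2.74 to 3.50. With the guide in vehicle livers Mup11 was −1.51 to 0.63, Mup15 −0.60 to 2.78, Mup20 −0.25 to 0.69 and Mup21 −0.76 to 1.51. With the guide in CCl4 livers Mup20 was −0.24 to 0.79. The causes were not tested.

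Replicate numbers gave no sign of pairing the livers. Deviations of same-numbered livers correlated at −0.15 to 0.10, and 0 of 3 livers of either CCl4 group correlated best with their own number. With so few livers in a group, this check cannot exclude pairing. With a replicate block, 5 members were called lower with CCl4 in sgBap1 livers in place of 8, and 7 in NTC livers. The shares of all genes called with that block are not given here.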
